A study of Mus musculus with 12 samples.

Results

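The 26 genes described here make up most of the route from acetyl-CoA to cholesterol, together with the sterol sensor that sets its rate, in the injured mouse spinal cord. They were chosen by symbol from a list of pathway genes, out of 57180 genes in the deposited tables, and all 26 passed the filter on low counts. Of them, 20 encode enzymes, 4 encode the SREBP control system and 2 act in sterol carriage and receptor turnover. Female C57BL/6J wild-type mice received a clip-compression injury at T9-T10, and 7 days later the lesion with the cord on either side of it was taken for bulk RNA sequencing. SCI7 mice had the injury alone. OVX2_SCI7 and OVX8_SCI7 mice were ovariectomised 2 or 8 weeks before the same injury, which the study describes as models of osteoporosis after loss of the ovaries. Each group had 4 libraries, labelled as biological replicates. No uninjured or sham-operated cord was analysed here, so every value below is a level in injured tissue. The labels give an age of 8 weeks for all 3 groups without naming the event it refers to, so age at injury and time since ovariectomy cannot be told apart.

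Cells make cholesterol by joining acetyl units into mevalonate, turning mevalonate into isoprene units, joining these into squalene and closing and trimming the sterol ring. When sterol in the membrane of the endoplasmic reticulum falls, the escort protein Scap carries the transcription factor Srebf2 to the Golgi, where it is cut and released to switch the enzyme genes on, and the Insig proteins hold the escort back when sterol is plentiful. The intact cord draws little cholesterol from the blood, so local synthesis supplies myelin and membranes, and sterol freed from myelin debris is taken up by microglia and macrophages after injury.

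The factor binds sterol response elements in promoters beside boxes for NF-Y and Sp1, and these letters were searched on both strands in RefSeq promoter windows of build GRCm38.p6 that run from 250 bases before to 50 after a gene start. The table held windows for 22 of the 26 genes. TCACNCCAC, one form of the element, was found in 1 of the 22 genes, Hmgcs1, against 1.44% of all genes in the table (1.24% of all 32851 windows). The shorter TCACNCCA, chosen after that search, was also found in Msmo1 and Srebf2. That made 3 of 22 genes, against 4.97% of all genes (4.36% of all windows). The 250 bases before the start of these 3 genes are shown because 2 of them, Hmgcs1 and Msmo1, were among the genes that fell and the third encodes the factor itself. Capitals mark TCACNCCA (with the C that follows it in Hmgcs1), CCAAT (the box bound by NF-Y) and GGGCGG (the box bound by Sp1) or their reverse complements.
Hmgcs1: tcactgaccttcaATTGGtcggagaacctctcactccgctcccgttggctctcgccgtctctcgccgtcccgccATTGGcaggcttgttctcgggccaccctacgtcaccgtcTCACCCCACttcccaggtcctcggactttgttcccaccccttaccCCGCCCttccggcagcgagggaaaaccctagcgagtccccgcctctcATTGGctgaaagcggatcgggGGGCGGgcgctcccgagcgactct
Msmo1: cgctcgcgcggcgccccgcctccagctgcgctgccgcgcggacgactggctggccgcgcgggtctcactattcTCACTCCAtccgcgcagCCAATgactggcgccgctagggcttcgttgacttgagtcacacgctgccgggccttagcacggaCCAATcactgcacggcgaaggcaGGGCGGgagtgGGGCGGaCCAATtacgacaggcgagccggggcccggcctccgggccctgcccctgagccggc
Srebf2: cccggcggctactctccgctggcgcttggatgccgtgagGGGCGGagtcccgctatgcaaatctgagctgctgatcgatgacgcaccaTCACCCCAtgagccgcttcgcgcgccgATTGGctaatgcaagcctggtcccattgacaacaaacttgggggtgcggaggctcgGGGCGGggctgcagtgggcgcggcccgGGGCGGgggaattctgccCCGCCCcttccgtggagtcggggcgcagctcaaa
The Hmgcs1 stretch is chr13:119690101-119690350 on the plus strand, that of Msmo1 chr8:64733579-64733828 on the minus strand and that of Srebf2 chr15:82147019-82147268 on the plus strand. The element began 137 bases before the start in Hmgcs1, 177 in Msmo1 and 162 in Srebf2. CCAAT was found in the windows of 20 of the 22 genes, or 90.9%, against 41.1% of all genes in the table. GGGCGG was found in 20 of 22, against 38.2%. These background shares cover every gene in the promoter table and were not matched for expression or GC content. Scap and Acat2 had no CCAAT, and Ggps1 and Pmvk no GGGCGG. A match describes letters in this window and was not tested as a site.

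All 26 genes were measured well above the detection limit, with group means of 10.6 to 195 TPM in SCI7 (TPM is the share of transcripts after correction for length, which allows genes to be compared). Hmgcs1 was the most abundant in every group, at 195 ± 40.5 TPM in SCI7 (SD, n = 4), 133 ± 83.3 in OVX2_SCI7 and 81.5 ± 8.80 in OVX8_SCI7. In SCI7 it was followed by Msmo1 at 80.8 ± 18.6 TPM, Idi1 at 72.6 ± 17.9 TPM and Sc5d at 61.6 ± 14.0 TPM, whose spreads overlapped. In OVX8_SCI7 the order differed: Srebf2 at 56.4 ± 13 TPM, Fdps at 50.1 ± 9.23 TPM and Scap at 46.1 ± 8.93 TPM came next with overlapping spreads, while Idi1 was at 22.4 ± 1.66 TPM. At the low end in SCI7 were Tm7sf2 at 10.6 ± 1.54 TPM and Mvd at 11.1 ± 0.868 TPM, whose spreads also overlapped.

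With 8 weeks between ovariectomy and injury, 9 of the 26 genes were lower than after injury alone and 1 was higher. The 9 were the enzymes Hmgcs1, Idi1, Ggps1, Cyp51, Msmo1, Hsd17b7 and Sc5d, the sterol sensor Insig2 and the sterol carrier Stard4, with folds of 1.54 to 3.23 lower. The 1 that rose was Scap, 1.56-fold. None of the 20 enzymes rose and 7 fell. Across all 17820 genes tested the same comparison called 15.6% lower and 11.9% higher (adjusted p under 0.05, edgeR's quasi-likelihood test with Benjamini-Hochberg adjustment). Across the 26 genes the log2 fold change had a median of -0.40, against 0.01 over all genes, and 16 of 26 were below 0, against 49.1% of all genes. At an unadjusted p under 0.05 there were 13 of 26, against 43.2% of all genes. Every OVX8_SCI7 library lay below every SCI7 library in CPM (the count scaled to library size, used below to compare libraries within a gene) for 12 of the 26 genes and above it for 2, where 19.6% of all genes separated downward and 19.6% upward. With the dependence of each library on transcript GC content and length removed, none of the 10 passed, and the 9 lower genes stood at log2 fold changes of -0.30 to -1.04. Because whole tissue was sequenced, fewer cells of a type and less RNA per cell cannot be told apart in any of these values.

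**Figure D1:**
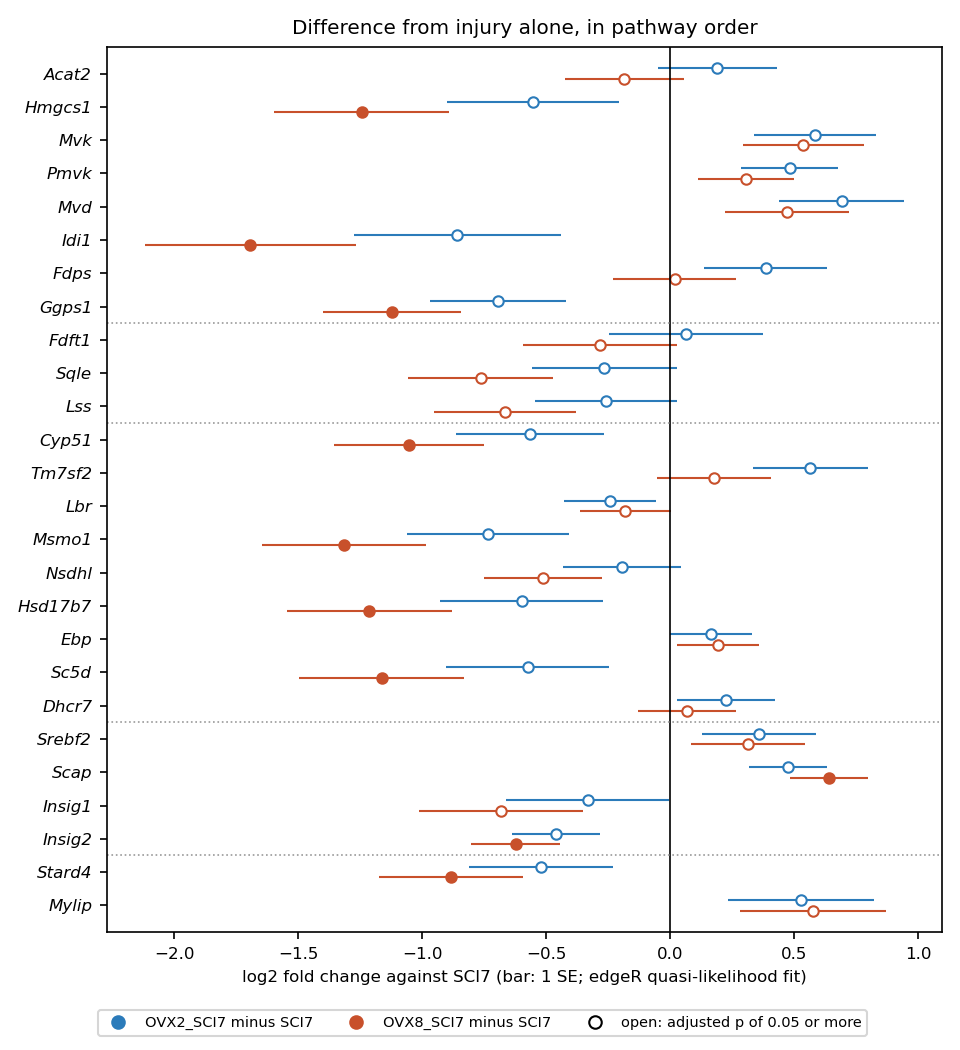
log2 fold change against SCI7 of the 26 genes in pathway order, with a bar of 1 SE, for OVX2_SCI7 (blue) and OVX8_SCI7 (orange); filled points had an adjusted p under 0.05. The 10 filled points are all orange, 9 of them left of 0 and 1, Scap, right of it.

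In the mevalonate steps, 3 of 8 enzymes fell and none rose. Hmgcs1, which joins acetyl units into HMG-CoA, was measured at 440, 342, 395 and 231 CPM in SCI7 replicates 1 to 4. It stood at 406, 295, 114 and 145 CPM in OVX2_SCI7 replicates 1 to 4 and at 151, 142, 158 and 143 CPM in OVX8_SCI7. The 4 OVX8_SCI7 libraries lay close together below all of SCI7, while OVX2_SCI7 spanned both. The log2 fold change in OVX8_SCI7 was -1.24 (SE 0.35), or 2.37-fold lower (adjusted p = 0.0256, edgeR). Idi1, the isomerase that makes the reactive isoprene unit, had the lowest fold change of the 26. Its levels were 139, 97.5, 113 and 61.0 CPM in SCI7, 111, 61.2, 21.6 and 32.5 CPM in OVX2_SCI7 and 35.5, 29.8, 33.0 and 28.7 CPM in OVX8_SCI7, again with no overlap between SCI7 and OVX8_SCI7. The log2 fold change was -1.69 (SE 0.43), 3.23-fold lower (adjusted p = 0.0180, edgeR). Ggps1, which draws isoprene units toward protein prenylation rather than sterol, was at 87.1, 79.2, 91.3 and 55.6 CPM in SCI7, 83.6, 39.9, 31.5 and 38.6 CPM in OVX2_SCI7 and 36.0, 34.4, 32.4 and 41.2 CPM in OVX8_SCI7. OVX2_SCI7 replicate 1 lay in the SCI7 range, replicates 2 and 4 in the OVX8_SCI7 range and replicate 3 just below it. The log2 fold change in OVX8_SCI7 was -1.12 (SE 0.28) (adjusted p = 0.0172, edgeR).

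The other 5 enzymes of this stretch did not pass the test in OVX8_SCI7, and their groups overlapped. The kinases Mvk and Pmvk and the decarboxylase Mvd, which act in sequence on mevalonate, had log2 fold changes of 0.54 (SE 0.25), 0.31 (SE 0.19) and 0.47 (SE 0.25), with adjusted p from 0.114 to 0.243 (edgeR). Fdps, which builds farnesyl diphosphate, stood at 0.02 (SE 0.25) and Acat2, the cytosolic thiolase of the opening step, at -0.18 (SE 0.24). With the GC and length trend removed, Mvk, Pmvk and Mvd turned below 0.

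Between farnesyl diphosphate and the first sterol, none of the 3 enzymes passed the test. Sqle, the squalene epoxidase, was at 73.2, 62.3, 76.1 and 53.4 CPM in SCI7, 74.0, 81.2, 28.5 and 36.6 CPM in OVX2_SCI7 and 38.9, 40.6, 43.9 and 32.6 CPM in OVX8_SCI7. All 4 OVX8_SCI7 libraries were below all 4 SCI7 libraries, while in OVX2_SCI7 replicate 1 lay within and replicate 2 above the SCI7 range, replicate 4 within and replicate 3 below the OVX8_SCI7 range. For Sqle the log2 fold change was -0.76 (SE 0.29), with an adjusted p of 0.0682 (edgeR). Lss, which closes the ring to lanosterol, also separated fully, with a log2 fold change of -0.67 (SE 0.29) and an adjusted p of 0.0972 (edgeR). Fdft1, the squalene synthase, overlapped, at -0.28 (SE 0.31).

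**Figure D2:**
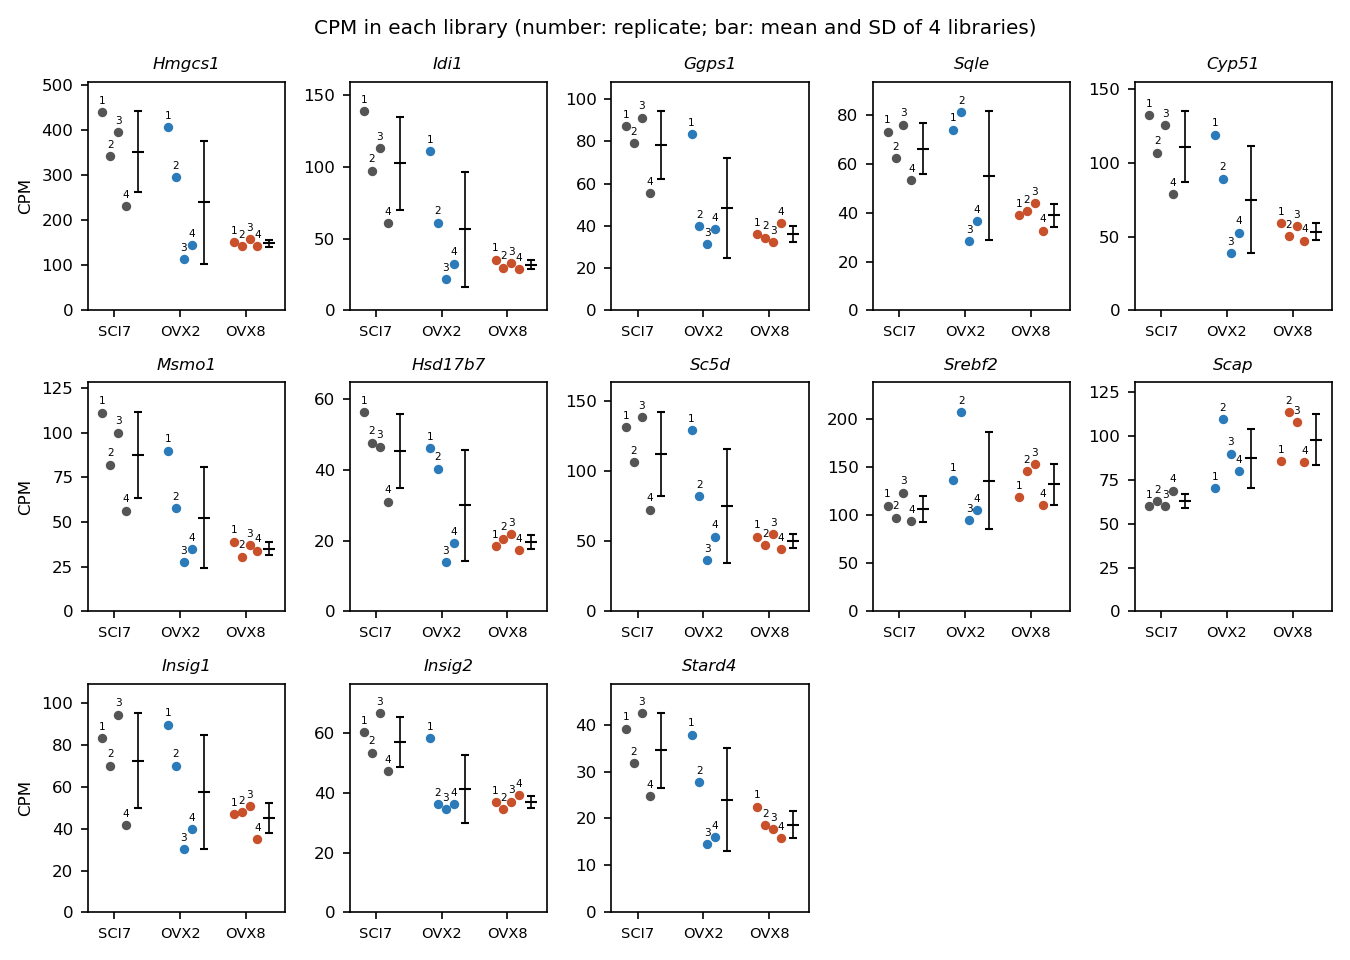
CPM in each library of 13 of the 26 genes (the 10 called in OVX8_SCI7 against SCI7, plus Srebf2, Insig1 and Sqle), each point labelled with its replicate number, with the mean and SD of 4 libraries in black. In Hmgcs1, Idi1, Cyp51 and Msmo1 the OVX8_SCI7 libraries sit together below SCI7 and OVX2_SCI7 replicates 3 and 4 sit near them.

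Among the sterol ring steps, 4 of 9 enzymes fell and none rose, and in all 4 the SCI7 and OVX8_SCI7 libraries did not overlap. Cyp51, which removes a methyl group from lanosterol, was at 132, 107, 125 and 78.6 CPM in SCI7, 119, 89.3, 38.6 and 52.7 CPM in OVX2_SCI7 and 59.2, 50.3, 56.8 and 47.1 CPM in OVX8_SCI7. Its log2 fold change in OVX8_SCI7 was -1.05 (SE 0.30) (adjusted p = 0.0267, edgeR). Msmo1, the sterol methyl oxidase, showed the same split of the OVX2_SCI7 libraries. It was measured at 111, 82.2, 100 and 56.4 CPM in SCI7, 90.0, 57.8, 27.5 and 34.9 CPM in OVX2_SCI7 and 39.1, 30.6, 37.1 and 34.0 CPM in OVX8_SCI7. In OVX8_SCI7 this was a log2 fold change of -1.31 (SE 0.33), 2.49-fold lower (adjusted p = 0.0180, edgeR). Hsd17b7, the ketosteroid reductase that completes the removal of the methyl groups, stood at 56.2, 47.6, 46.5 and 31.0 CPM in SCI7, 46.1, 40.3, 13.9 and 19.3 CPM in OVX2_SCI7 and 18.5, 20.6, 21.8 and 17.3 CPM in OVX8_SCI7. OVX2_SCI7 replicate 3 was below every OVX8_SCI7 library. For Hsd17b7 the log2 fold change in OVX8_SCI7 was -1.21 (SE 0.33) (adjusted p = 0.0230, edgeR). Sc5d, the desaturase near the end of the route, was at 131, 106, 138 and 72.4 CPM in SCI7, 129, 82.0, 36.4 and 53.1 CPM in OVX2_SCI7 and 53.2, 47.0, 55.0 and 44.5 CPM in OVX8_SCI7. Its log2 fold change was -1.16 (SE 0.33) (adjusted p = 0.0266, edgeR).

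The remaining 5 ring enzymes did not pass. Nsdhl, which works beside Msmo1 and Hsd17b7 in the removal of the methyl groups, separated fully below SCI7 with a log2 fold change of -0.51 (SE 0.24) and an adjusted p of 0.120 (edgeR). Tm7sf2 and Lbr, the pair of proteins that reduce the same double bond, had log2 fold changes of 0.18 (SE 0.23) and -0.18 (SE 0.18). That of Ebp, the isomerase, was 0.19 (SE 0.16), and Dhcr7, one of the reductases of the final steps, stood at 0.07 (SE 0.20). All 4 of these had overlapping groups.

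In SREBP control, Scap rose, Insig2 fell and the other two did not pass. Srebf2, the factor itself, was at 110, 97.7, 123 and 94.1 CPM in SCI7, 137, 207, 94.8 and 106 CPM in OVX2_SCI7 and 119, 146, 153 and 110 CPM in OVX8_SCI7. The groups overlapped, OVX2_SCI7 replicate 2 was the highest library, and the log2 fold change in OVX8_SCI7 was 0.31 (SE 0.23) (adjusted p = 0.308, edgeR). Scap, the escort, was at 59.9, 62.8, 60.1 and 68.9 CPM in SCI7, 70.3, 110, 89.9 and 79.8 CPM in OVX2_SCI7 and 85.6, 114, 108 and 85.2 CPM in OVX8_SCI7. Every library of both ovariectomy groups was above every SCI7 library. The log2 fold change in OVX8_SCI7 was 0.64 (SE 0.16) (adjusted p = 0.0170, edgeR), and it turned to -0.11 (SE 0.08) once the dependence of each library on transcript GC content and length was removed. Insig1, the retention protein whose own gene is a target of the factor, was at 83.1, 70.2, 94.4 and 41.8 CPM in SCI7, 89.7, 70.0, 30.2 and 39.9 CPM in OVX2_SCI7 and 47.1, 47.8, 50.8 and 34.8 CPM in OVX8_SCI7. SCI7 replicate 4 lay among the OVX8_SCI7 libraries, and the log2 fold change was -0.68 (SE 0.33) (adjusted p = 0.133, edgeR). Insig2, the second retention protein, was at 60.5, 53.6, 66.7 and 47.3 CPM in SCI7, 58.5, 36.2, 34.6 and 36.3 CPM in OVX2_SCI7 and 36.9, 34.7, 37.1 and 39.4 CPM in OVX8_SCI7. SCI7 and OVX8_SCI7 did not overlap, and OVX2_SCI7 replicate 1 alone of its group lay in the SCI7 range. Its log2 fold change in OVX8_SCI7 was -0.62 (SE 0.18) (adjusted p = 0.0265, edgeR).

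Stard4, which carries sterol between membranes, fell. It was measured at 39.1, 31.7, 42.4 and 24.7 CPM in SCI7, 37.9, 27.8, 14.5 and 16.0 CPM in OVX2_SCI7 and 22.5, 18.6, 17.7 and 15.8 CPM in OVX8_SCI7, with no overlap between SCI7 and OVX8_SCI7 and a log2 fold change of -0.89 (SE 0.29) (adjusted p = 0.0414, edgeR). Mylip, a ubiquitin ligase that removes lipoprotein receptors when sterol is plentiful, was highest in OVX2_SCI7 replicate 3 and lowest in SCI7 replicate 3. It was at 47.8, 39.8, 28.2 and 48.8 CPM in SCI7, 34.7, 37.9, 94.5 and 70.4 CPM in OVX2_SCI7 and 68.2, 60.3, 55.5 and 61.5 CPM in OVX8_SCI7. All OVX8_SCI7 libraries were above all SCI7 libraries, but the log2 fold change of 0.58 (SE 0.29) had an adjusted p of 0.151 (edgeR).

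The calls in OVX8_SCI7 depended on single libraries, although none of the 10 called genes changed sign when any 1 of the 12 libraries was left out: Idi1 ranged from -1.87 to -1.52 and Hmgcs1 from -1.40 to -1.12. Without OVX8_SCI7 replicate 2 or 3 none of the 26 genes passed, without SCI7 replicate 1 only Scap and Ggps1 did, without SCI7 replicate 2 or OVX8_SCI7 replicate 1 the number that fell was 3, without SCI7 replicate 3 it was 4, and Scap was also lost without SCI7 replicate 2. Over all genes the shares called dropped as well. Without OVX8_SCI7 replicate 2 no gene of any kind was called (0%), and without OVX8_SCI7 replicate 3 4.27% were lower and 2.42% higher. Without OVX8_SCI7 replicate 1 the shares were 8.47% and 5.52%. Without SCI7 replicates 1, 2 or 3 in turn they were 8.47%, 6.32% and 10.6% lower and 4.47%, 2.77% and 5.59% higher.

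With 2 weeks between ovariectomy and injury, in a comparison that shares its 4 SCI7 libraries with the one above, no gene of the 26 passed the test in either direction, and neither did any of the 17820 genes (0% higher and 0% lower, edgeR). At an unadjusted p under 0.05 there were 8 of 26, a share near the 32.5% of all genes. DESeq2 called 2 of the 26 higher, Mvd and Scap, and none lower, where it called 11% of all genes higher and 9.65% lower. None of the 26 was called by limma-voom, which called 1.6% of all genes higher and 3.41% lower, or by limma on log2 TPM, which called 0.0367% and 0.0472%. The smallest adjusted p among the 26 was that of Scap, 0.0727 (edgeR), with a log2 fold change of 0.47 (SE 0.16). Mvd, at 0.69 (SE 0.25), was the other gene whose OVX2_SCI7 libraries were all above SCI7. None was below SCI7 in every library. The background was 6.13% of genes separated upward and 6.29% downward. Idi1 had a log2 fold change of -0.86 (SE 0.42), Msmo1 -0.74 (SE 0.33) and Hmgcs1 -0.55 (SE 0.35), and the median of the 26 was -0.22, against 0.04 over all genes. With the dependence of each library on transcript GC content and length removed, 7 of the 26 signs changed, the median was -0.07, and none of the 26 had an unadjusted p under 0.05, against 10.9% of all genes. In that fit Idi1 stood at -0.35 (SE 0.37), Msmo1 at -0.45 (SE 0.33), Hmgcs1 at -0.11 (SE 0.32) and Mvd at 0.06 (SE 0.21), and Scap turned to -0.06 (SE 0.08).

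The OVX2_SCI7 libraries did not agree among themselves in these genes. For the 9 genes that fell in OVX8_SCI7, replicate 1 was at or above the lowest SCI7 library in 9 of 9 and replicate 2 in 7 of 9, whereas replicates 3 and 4 were at or below the highest OVX8_SCI7 library in 9 of 9 each, and replicate 3 was below the lowest in 9 of 9. The exceptions for replicate 2 were Ggps1 and Insig2, where it stood with OVX8_SCI7. The median deviation of the 20 enzymes from their mean over 12 libraries was 0.47, 0.53, -0.56 and -0.37 log2 units in OVX2_SCI7 replicates 1 to 4. It was 0.35, 0.18, 0.42 and 0.01 in SCI7 and -0.29, -0.18, -0.08 and -0.50 in OVX8_SCI7. Thus the highest and the lowest library of all 12 were both in OVX2_SCI7. Without OVX2_SCI7 replicate 1 the comparison with SCI7 called 8 of the 26 genes lower and 4 higher, and without replicates 1 and 2 it called 13 lower and 2 higher, Scap and Mylip. Over all genes these fits called 17.6% lower and 17.1% higher, and 18.9% lower and 19.9% higher. That last fit rests on 2 libraries that were kept with their levels known, and gave Idi1 -1.92 (SE 0.31), Hmgcs1 -1.44 (SE 0.24) and Sqle -1.02 (SE 0.19).

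**Figure D3:**
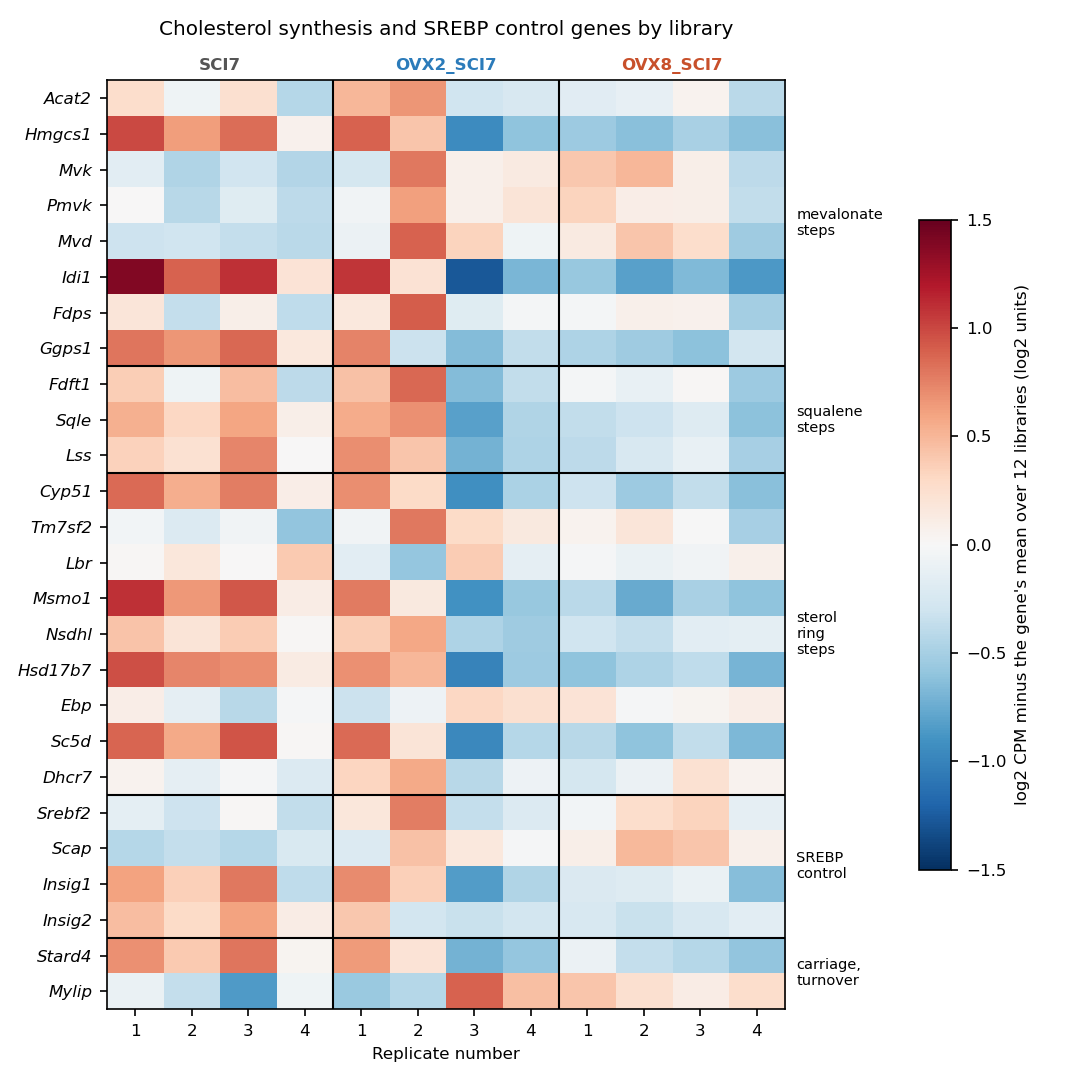
Deviation of log2 CPM from each gene's mean over 12 libraries (red above, blue below) for the 26 genes in pathway order, one column per library. OVX2_SCI7 replicates 1 and 2 are red in most enzymes, and replicate 3 has the deepest blue of the row in Idi1, Hmgcs1, Cyp51, Hsd17b7 and Sc5d.

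Between the 2 ovariectomy groups no gene of the 26 differed by the test. Of the 26, 22 had a fold change below 0 in OVX8_SCI7 against OVX2_SCI7, where 55.5% of all genes were below 0. The median of the 26 was -0.36, against -0.03 over all genes. Idi1 had the lowest log2 fold change, -0.83 (SE 0.42), and Scap the highest, 0.17 (SE 0.16). None passed in either direction, as among all genes (0% higher and 0% lower, edgeR). None of the 26 had an unadjusted p under 0.05, against 2.21% of all genes, and DESeq2, limma-voom and limma on log2 TPM also called none of them, where DESeq2 called 0.0168% of all genes in each direction. No member separated in CPM, where 0.241% of all genes separated upward and 1.08% downward. Without OVX2_SCI7 replicates 1 and 2 the median turned to 0.19, and 20 of 26 were above 0, where 53.8% of all genes were below 0. By the median of the enzymes these 2 were the highest of all libraries, so an upward move of most genes was built into leaving them out. This did not hold for each gene: in Mylip these 2 were the lowest of their group, at 34.7 and 37.9 CPM.

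Other measures of the libraries moved with these genes, and their part in the result was not tested. The GC and length adjustment cannot separate a library's GC trend from a group difference that follows GC content. The libraries held 18222809 to 31781728 counts. The rank correlation between a library's deviation and transcript GC content over 12419 protein-coding genes was -0.85 to -0.53 in SCI7 and 0.18 to 0.87 in OVX8_SCI7. In OVX2_SCI7 it was -0.44, 0.54, 0.41 and 0.49. The mitochondrial share of counts was 5.35% to 9.35% in SCI7, 8.33%, 3.13%, 2.36% and 2.84% in OVX2_SCI7 and 2.2% to 3.36% in OVX8_SCI7. On both measures OVX2_SCI7 replicate 2 stood with OVX8_SCI7, while its enzyme median of 0.53 was the highest of the 12.

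**Figure D4:**
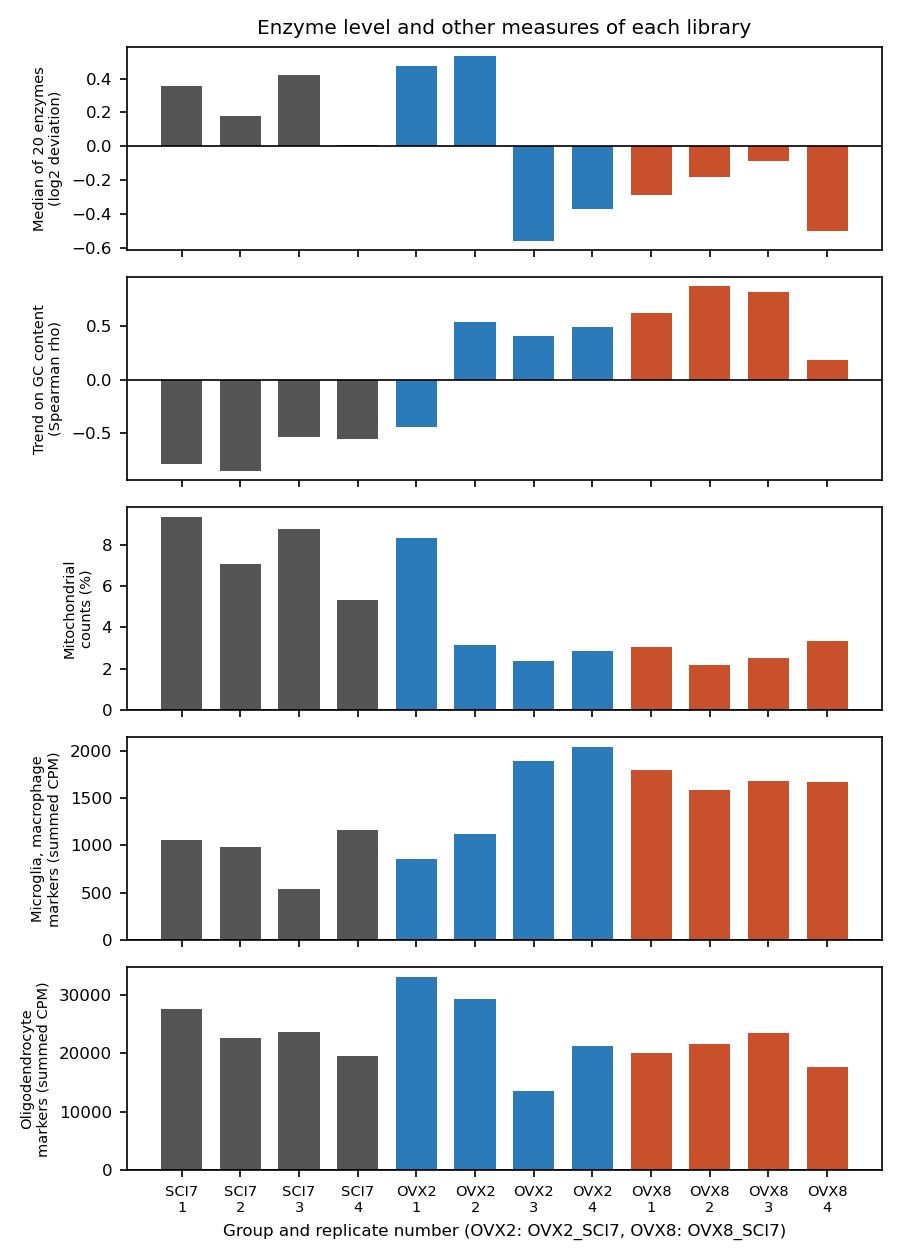
Measures of each of the 12 libraries: median log2 deviation of the 20 enzymes, rank correlation of the library's deviation with GC content, mitochondrial share of counts, and summed CPM of 6 microglia and macrophage markers and of 6 oligodendrocyte markers. The 6 libraries with microglia and macrophage sums of 1585 CPM or more are those with an enzyme median below 0.

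Oligodendrocyte, astrocyte and neuron markers were abundant in every library, as the spinal cord label gives. The 6 oligodendrocyte markers summed to 19593 to 27581 CPM in SCI7, 33030, 29342, 13613 and 21252 CPM in OVX2_SCI7 and 17698 to 23498 CPM in OVX8_SCI7, and none of the 6 passed the test in OVX8_SCI7. The 6 astrocyte markers summed to 9324 to 11618 CPM in SCI7, 5798 to 13379 CPM in OVX2_SCI7 and 8721 to 10161 CPM in OVX8_SCI7, where 1 of 6 fell. The 6 neuron markers summed to 1290 to 4188 CPM in SCI7, 1044 to 4251 CPM in OVX2_SCI7 and 1416 to 2617 CPM in OVX8_SCI7, and none passed. The 6 microglia and macrophage markers summed to 539 to 1162 CPM in SCI7, 857, 1124, 1895 and 2041 CPM in OVX2_SCI7 and 1585 to 1793 CPM in OVX8_SCI7. In OVX8_SCI7, 2 of these 6 rose and 1 fell. Csf1r and Trem2 rose, with log2 fold changes of 0.70 and 1.66, and P2ry12 fell, at -1.14. With the dependence on GC content and length removed none of the 3 passed, and they stood at 0.25, 0.96 and -0.18. Beside all marker counts given here, 11.9% of all genes were called higher and 15.6% lower. The microglia and macrophage sums did not overlap between SCI7 and OVX8_SCI7. In OVX2_SCI7 replicates 1 and 2 these sums lay in the SCI7 range, while those of replicates 3 and 4 lay above both groups. Schwann cell markers overlapped, at 256 to 1176 CPM over all libraries. Sensory neuron markers stood at 257 CPM in OVX2_SCI7 replicate 2 and at no more than 43.3 CPM elsewhere. The 3 fat cell markers did not pass the filter and summed to at most 5.55 CPM, and skeletal muscle markers at most 12.6 CPM in SCI7, 10.4 CPM in OVX2_SCI7 and 42.1 CPM in OVX8_SCI7, where 1 of 4 rose.

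Within the 26 genes, fold change followed the GC content of the transcript. The 9 genes that fell had 40.1% to 46.2% GC, and Scap had 59.1%. The 9 genes that did not pass and had a fold change above 0 had 49.6% to 59.6%. The rank correlation between fold change and GC content was 0.85 over the 26 genes and 0.82 over 15087 protein-coding genes, as a description across genes that share the same 12 libraries. With the dependence on GC content and length removed from each library, these became 0.28 and 0.00, and no gene of the 26 passed in OVX8_SCI7, as among all 17820 genes. In that fit 23 of the 26 genes had a fold change below 0, against 57.8% of all genes, with a median of -0.41 against -0.06, and 8 of the 26 had an unadjusted p under 0.05, against 15.2% of all genes. The lowest were Idi1 at -1.04 (SE 0.38), Msmo1 at -0.997 (SE 0.33) and Lss at -0.95 (SE 0.32). Sqle at -0.79 (SE 0.32) and Cyp51 at -0.78 (SE 0.28) followed. Msmo1 had the smallest adjusted p of the 26, 0.205 (edgeR). Mvk, Pmvk and Mvd turned to -0.32, -0.41 and -0.37, and Srebf2 to -0.37. Mylip stood at 0.55, and Lbr turned to 0.24. Thus 9 of 26 signs changed with this step, 8 of them from above 0 to below.

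**Figure D5:**
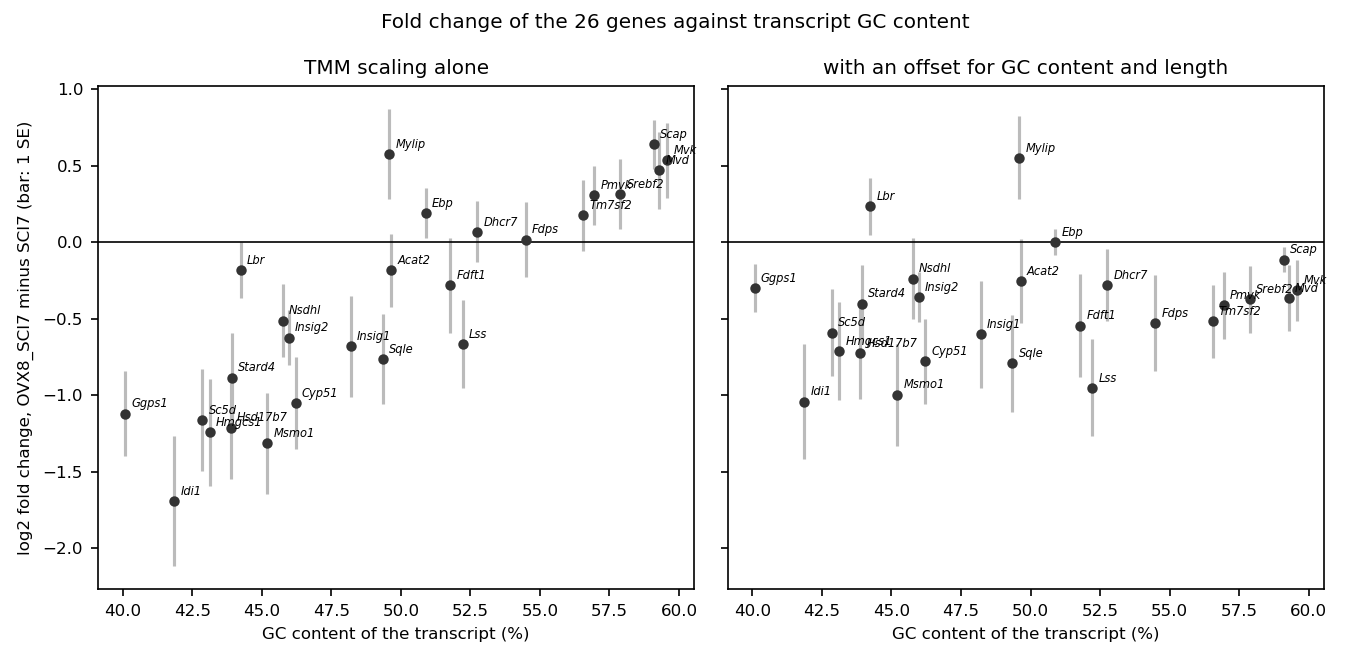
log2 fold change of OVX8_SCI7 against SCI7 (bar 1 SE) plotted against transcript GC content for the 26 genes, with TMM scaling alone on the left and with the dependence on GC content and length removed on the right. On the left the genes run from Idi1 at -1.69 to Scap at 0.64 along GC content; on the right 23 of 26 lie below 0.

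The protease and degradation machinery around the factor, 7 genes, had 2 lower and none higher in OVX8_SCI7. Over all genes that comparison called 15.6% lower and 11.9% higher. Rnf139, a ubiquitin ligase of the endoplasmic reticulum, was at 56.7 ± 4.93 CPM in SCI7 (SD, n = 4) and 32.6 ± 4.11 CPM in OVX8_SCI7, with a log2 fold change of -0.80 (SE 0.16) (adjusted p = 0.0143, edgeR). Mbtps2, the protease of the second cut that frees the factor, was at 42.1 ± 5.65 and 25.2 ± 3.76 CPM, with -0.74 (SE 0.20) (adjusted p = 0.0226, edgeR). With the GC and length trend removed Mbtps2 turned to 0.09 and Rnf139 stood at -0.10. The median of the 7 was -0.22.

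Of 11 genes of sterol turnover, storage and efflux, 3 rose in OVX8_SCI7 and none fell, against 11.9% higher and 15.6% lower over all genes. The 3 were Nr1h2 and Nr1h3, the oxysterol receptors that switch on efflux, and Cyp27a1, which oxidises the sterol side chain. Nr1h2 went from 33.1 ± 2.47 to 70.4 ± 11.0 CPM, a log2 fold change of 1.09 (SE 0.21) (adjusted p = 0.0143, edgeR). Nr1h3 went from 5.47 ± 1.72 to 13.3 ± 1.29 CPM, at 1.28 (SE 0.38) (adjusted p = 0.0302, edgeR), and Cyp27a1 from 21.3 ± 1.39 to 30.3 ± 1.53 CPM, at 0.51 (SE 0.12) (adjusted p = 0.0155, edgeR). The median of the 11 was 0.54. None of the 3 passed with the GC and length trend removed, and neither did any other gene. In that fit the 3 stood at 0.23, 0.60 and 0.07.

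In the fatty acid arm, 1 of 10 genes fell and none rose in OVX8_SCI7, with a median of -0.12. The shares called over all genes were 15.6% lower and 11.9% higher. Me1, which supplies reducing power for synthesis, was at 185 ± 16.7 CPM in SCI7 and 108 ± 6.01 CPM in OVX8_SCI7, with a log2 fold change of -0.79 (SE 0.22) (adjusted p = 0.0234, edgeR). With the GC and length trend removed it did not pass, at -0.43 (adjusted p = 0.283, edgeR). Elovl6, a fatty acid elongase, had the next smallest p and did not pass, at -0.76 (SE 0.28) (adjusted p = 0.0598, edgeR). None of the genes in these 3 lists passed in OVX2_SCI7 against SCI7 or between the ovariectomy groups. When single libraries were left out, Rnf139 and Nr1h2 were called in 11 of 12 fits, Cyp27a1 in 10, Mbtps2 in 8, Me1 in 7 and Nr1h3 in 6, and all 6 genes were lost without OVX8_SCI7 replicate 2.

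Some members share reads with other loci. The deposited counts were whole numbers to within 0.001 in every library for 13 of the 26 genes. They were not whole in all 12 libraries for Acat2, Fdft1, Tm7sf2, Lbr and Scap, so the levels of these 5 include reads that were divided between genes and are less certain. The same holds in part for Hmgcs1, not whole in 8 of 12 libraries, Msmo1 in 5, Srebf2 in 2, and Dhcr7, Ggps1, Idi1, Lss and Sqle in 1 each.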

How the data were processed

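Bulk RNA-seq libraries from 12 mice, 4 per group, were analysed. The expected counts and TPM values per gene are as the authors deposited them, made with fastp 0.23.4, HISAT2 2.2.1 and RSEM 1.3.3 on GRCm39 per the submitters' processing notes, which were used here without settings, annotation version or strand. Another 3 value columns per file, the authors' group values, were not used. TPM served to compare levels between genes and, as an alternative test between groups, in limma on log2 TPM. Expected counts were rounded and fitted over all 12 libraries with edgeR 4.0.16 (filterByExpr, TMM, robust quasi-likelihood F-test, group as the only term; R 4.3.3), and p-values were adjusted over all 17820 genes tested by Benjamini-Hochberg, with a threshold of 0.05. The fit was tested on simulated data drawn with less spread than the real libraries and with no trend on GC content. That test therefore does not cover the GC trend found here. An SE is the log2 fold change divided by the root of F. CPM uses TMM-scaled library sizes, and 3 counts correspond to at most 0.165 CPM. Deviations use log2 CPM with a pseudocount of 0.5.

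Alternatives were DESeq2 1.42.0 size factors and test, limma 3.58.1 (voom, and trend on log2 of TPM plus 1), no filter or a stricter one on low counts, fits of only the 8 libraries compared, a block for replicate number, leaving out each library, leaving out OVX2_SCI7 replicates 1 and 2, and an offset per library for its trend on GC content and length (splines with 5 degrees of freedom). GC content and length came from GENCODE transcripts of an older build, GRCm38, matched for 26 of 26 genes.

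The members and the other gene lists were chosen with earlier results of these data known. All 26 members are named. CPM per library is given for those called in any comparison and for Srebf2, Scap, Insig1, Insig2, Sqle and Hmgcs1, and the other lists are given by counts, by any gene called and by the 2 genes with the smallest p. No libraries were duplicates. The labels do not divide the libraries into batches, so a batch difference between the groups was not tested. P-values measure the spread between libraries labelled as biological replicates.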

Additional observations from a re-analysis of the deposited data

Results flagged for a closer look

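In 78 sets of 4 libraries (26 genes in 3 groups), 2 had a library set apart from the other 3 by Dixon's ratio, and chance alone flags about 1 set in 20. Ggps1 stood at 83.6 CPM in OVX2_SCI7 replicate 1 and at 31.5 to 39.9 CPM in the other 3 libraries of that group. Insig2 stood at 58.5 CPM in the same library and at 34.6 to 36.3 CPM in the other 3. In both genes this library lay within the SCI7 range.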

How the results depend on the processing

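For OVX8_SCI7 against SCI7, 1 gene higher and 9 lower were also called with DESeq2 size factors, the stricter filter, limma-voom and the replicate block. The 8 libraries alone gave 2 higher and 13 lower, the fit without OVX2_SCI7 replicates 1 and 2 gave 3 and 13, DESeq2 gave 1 and 10, no filter gave 1 and 7, and limma on log2 TPM gave 0 and 3. The GC and length offset gave 0 and 0 with or without the replicate block. There Scap reversed to -0.11 in both, and Mbtps2 to 0.087 without the block and 0.0868 with it. Leaving out each library gave 0 to 1 higher and 0 to 10 lower. For OVX2_SCI7 against SCI7, the values of 0 and 0 became 2 and 0 with DESeq2 and 2 and 13 without OVX2_SCI7 replicates 1 and 2. Leaving out each library gave 0 to 4 higher and 0 to 8 lower, with calls only without OVX2_SCI7 replicate 1. Every other alternative gave 0 and 0, as did all of them for OVX8_SCI7 against OVX2_SCI7. Over all genes the OVX8_SCI7 counts against SCI7 were 2112 higher and 2781 lower in the main analysis, 1532 and 1725 with no filter, 1260 and 1485 with limma on log2 TPM, 3533 and 3893 with the 8 libraries alone, and 0 and 0 with the offset. The cause of these differences was not tested. The offset removes each library's GC trend by construction, and that trend did not overlap between SCI7 and OVX8_SCI7. A library's GC trend and a group difference that follows GC content therefore cannot be told apart.

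The replicate numbers did not pair the libraries across the groups: over 12 same-numbered pairs the correlation of deviations ran from -0.83 to 0.73. Only 3 libraries correlated best with their own number. All 3 were between SCI7 and OVX8_SCI7, in replicates 1, 3 and 4, at 0.53, 0.73 and 0.39. The replicate block gave 1 higher and 9 lower for OVX8_SCI7 against SCI7 and 0 and 0 for the other comparisons, with 1286 higher and 2104 lower over all genes. Depth did not limit the 26 genes, whose lowest library value was 5.55 CPM, but 4 libraries per group limit the precision of every fold change.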
